A study of Mus musculus with 8 samples.

Results

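The major histocompatibility complex (MHC) class II genes and Ciita, the gene of their transactivator, are described here in bulk RNA from CD8-gated cells of mouse tumours. The members are the 10 rows of the deposited expression table whose symbol is H2-Aa, H2-Ab1, H2-Eb1, Cd74, Ciita, H2-DMa, H2-DMb1, H2-DMb2, H2-Oa or H2-Ob, out of 19673 listed genes. All 10 are among the 16120 genes whose mean over the libraries reached 10. They were picked by name with the difference between KO and WT hosts in view, so their own KO and WT values are given as a description, without a test.

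The first group, KO, had 4 libraries from Mtdh KO hosts, and the second, WT, had 4 libraries from wild-type hosts. Mtdh encodes metadherin. All hosts carried tumours of Py8119, a mouse mammary tumour line, which was not itself described as altered in Mtdh. Cells that were live and positive for CD45, CD3e and CD8 were sorted from the tumours, and their total RNA was sequenced after removal of ribosomal RNA. The labels give no host age, and they do not say how the Mtdh allele was made or whether it was deleted in every cell, so the KO group is described only as a host genotype. Mtdh itself had normalized values of 5118, 4622, 2538 and 3341 in KO libraries 1 to 4, against 9324, 12745, 6407 and 7974 in WT libraries 1 to 4. The KO mean was 42.8% of the WT mean, and the groups did not overlap (exact permutation test on log2 values, two-sided p = 0.0286, the smallest that 70 arrangements can give).

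Class II molecules are cell-surface dimers that show peptides from endosomes to CD4 T cells. Dendritic cells, B cells and macrophages are the cells best known for making them, and mouse T cells are known for making little. Ciita is drawn to class II promoters by factors bound at the X and Y boxes, and interferon gamma switches it on in many cell types. The invariant chain, Cd74, fills the groove of new class II dimers and steers them to endosomes, where proteases cut it down, H2-DM exchanges the last fragment for peptide, and H2-O restrains H2-DM.

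Of these genes, 7 have windows in the RefSeq promoter table (GRCm38.p6), 8 windows in all, which run from 250 bases before to 50 bases after the gene start. The windows were searched on both strands for AACNNATG, letters of an X-box-like site, and for TGATTGG, letters of a Y box (an inverted CCAAT box). The letters were taken from the known X and Y boxes after the windows had been read. The 130 bases just before the start are shown for the 6 genes with a match, because they show which letters the class II promoters share. Capitals mark the matches, and every sequence reads 5′ to 3′ on the strand of its gene.
H2-Aa, chr17:34287824-34287953, minus strand: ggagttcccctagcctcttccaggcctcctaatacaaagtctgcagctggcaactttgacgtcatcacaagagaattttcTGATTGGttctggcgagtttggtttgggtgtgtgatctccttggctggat
H2-Eb1, chr17:34305737-34305866, plus strand: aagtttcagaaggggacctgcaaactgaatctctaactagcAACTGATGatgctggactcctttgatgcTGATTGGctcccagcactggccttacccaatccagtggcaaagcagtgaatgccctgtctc
H2-DMb1, chr17:34153061-34153190, plus strand: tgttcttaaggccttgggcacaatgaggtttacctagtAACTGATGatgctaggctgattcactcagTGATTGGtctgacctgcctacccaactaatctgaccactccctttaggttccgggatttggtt
H2-DMb2, chr17:34145119-34145248, plus strand: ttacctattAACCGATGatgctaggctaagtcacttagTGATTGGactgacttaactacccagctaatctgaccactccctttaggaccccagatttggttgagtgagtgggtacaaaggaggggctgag
H2-Ob, chr17:34238775-34238904, plus strand: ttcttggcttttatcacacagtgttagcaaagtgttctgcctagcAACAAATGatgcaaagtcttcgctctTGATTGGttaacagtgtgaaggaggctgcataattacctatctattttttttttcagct
H2-Oa, chr17:34092249-34092378, plus strand: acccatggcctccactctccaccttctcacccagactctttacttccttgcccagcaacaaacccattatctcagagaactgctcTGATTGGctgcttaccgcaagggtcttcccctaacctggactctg

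TGATTGG was found in all 6 of these promoters, and AACNNATG in 4 of them. In H2-Eb1, H2-DMb1, H2-DMb2 and H2-Ob both motifs were present in the same order, with their starts 26 to 29 bases apart, so that they did not overlap. The 2 windows of H2-DMa held neither. Among all 32851 promoter windows, AACNNATG was in 8.86%, TGATTGG in 7.82%, and the pair in this order with starts 15 to 40 bases apart in 15 windows (0.0457%). The 15 windows also include that of H2-Eb2, a further class II beta chain gene, and that of Tnfrsf9, the costimulatory receptor 4-1BB. The rest are those of H2-M10.4, H2ac10, AU016765, BC051142 and genes with Gm symbols, so the pair is not confined to class II promoters. Both motifs are thus seen in promoters of genes with high values (H2-Eb1) and with low values (H2-DMb2 and H2-Ob) in these libraries.

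The table's values are estimated read counts per gene divided by a size factor, and they are called normalized values here. Libraries held an estimated 16400000 to 29600000 reads, but few distinct cDNA fragments lay behind these reads. From the share of moderately expressed genes that were undetected, 1 fragment was estimated to be worth a normalized value of 23.6 (WT library 3) to 153 (KO library 2). Values near these rest on few molecules. Cd8a, a marker of CD8 T cells, was present in every library, in KO at 7561 to 13355 and in WT at 1565 to 6545. Other CD8 T cell markers were near 0 in some libraries. Cd3d was at 1.89 in WT library 2 and 3.30 in KO library 2, and Cd2 and Zap70 were at 2.84 in WT library 2. The macrophage transcript Lyz2, the lysozyme of myeloid cells, was also present throughout. It reached 75242 to 186897 in the KO libraries and 130076 to 211543 in the WT libraries. In such bulk RNA, a change in the number of cells of a type and a change in RNA per cell cannot be told apart.

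The 3 classical class II chains and Cd74 had the largest positive differences of the 10. H2-Aa, H2-Eb1 and Cd74 were higher in every KO library than in any WT library, by log2 differences of 1.80, 1.73 and 1.54, and H2-Ab1 overlapped in 1 library with a difference of 1.59. Ciita, H2-DMb1 and H2-DMa had smaller positive differences with overlapping groups, and H2-DMb2, H2-Oa and H2-Ob had negative differences that turned positive without KO library 2. In all, 7 members had positive and 3 negative differences, with a median of 1.07, beside a median of -0.12 over all 16120 genes. By limma over all genes (adjusted p under 0.05), 3 members were called higher and 0 lower, where 0.211% of all genes were called higher (34 genes, against 4 called lower). Groups did not overlap, with KO above WT, for the same 3 members and for 2.02% of all genes. Since the members were picked on this contrast, nothing is read from these counts.

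**Figure D1:**
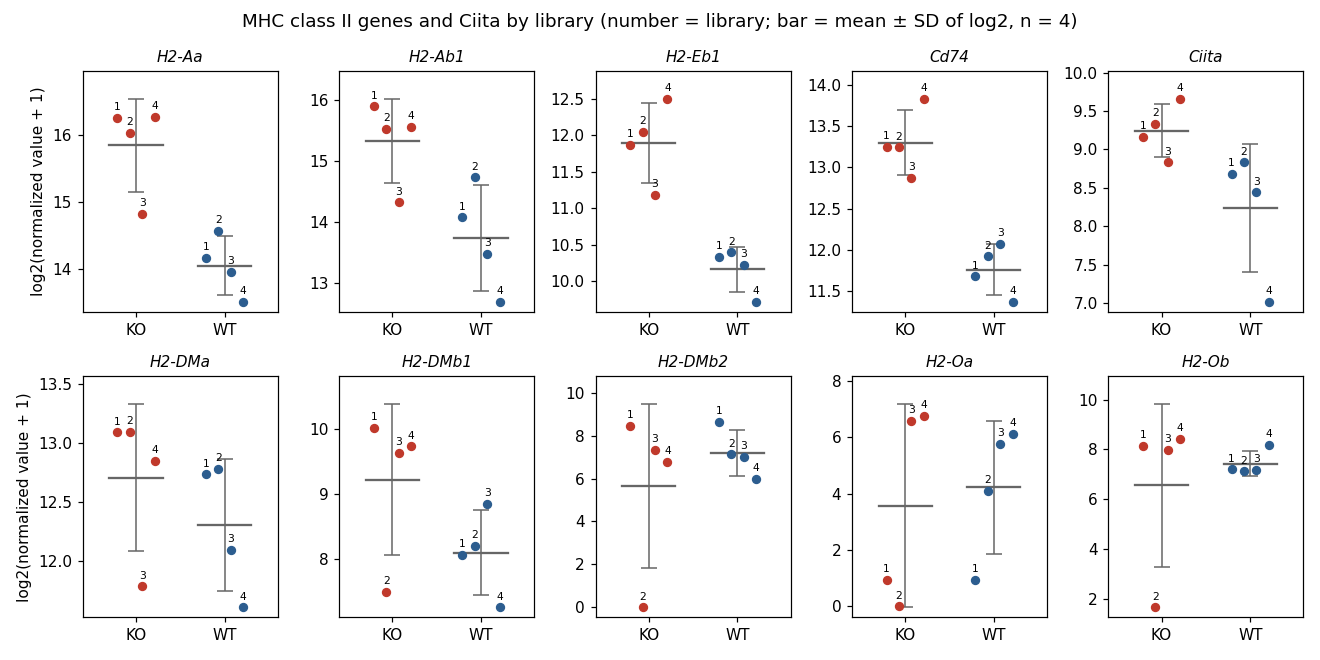
Normalized value of each class II gene and Ciita on the log2(value + 1) scale (y axis, a separate range per panel) in the 4 KO libraries (red) and the 4 WT libraries (blue), numbered by library, with bars for mean ± SD of the log2 values (n = 4). H2-Aa, H2-Eb1 and Cd74 show no overlap, and KO library 3 is the lowest KO library for H2-Aa, H2-Ab1, H2-Eb1, Cd74, Ciita and H2-DMa.

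H2-Aa (ENSMUSG00000036594, mm39 chromosome 17, 34501718 to 34506797, minus strand) encodes the alpha chain of the I-A dimer. Its normalized values were 78510.5, 67254, 28949 and 79428 in KO libraries 1 to 4, against 18326, 24286, 15829.9 and 11605 in WT libraries 1 to 4. The 3 other KO libraries stood well above KO library 3, which still exceeded the highest WT library. H2-Aa averaged 63536 ± 23713 in KO, against 17512 ± 5299.9 in WT (SD, n = 4 each), and the log2 difference was 1.80 (SE 0.29), or 1.62 to 2.15 with any 1 library left out.

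H2-Ab1 (ENSMUSG00000073421, chromosome 17, 34476663 to 34488393) encodes the beta chain that pairs with H2-Aa. It lay at 60777, 47233, 20401 and 48309.6 in KO libraries 1 to 4, against 17217, 27074, 11326 and 6572 in WT libraries 1 to 4. KO library 3 fell below WT library 2, which is the only overlap, and the WT libraries were spread more widely than for H2-Aa. The log2 difference was 1.59 (SE 0.36), or 1.24 to 1.92 with any 1 library left out.

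H2-Eb1 (ENSMUSG00000060586, chromosome 17, 34524841 to 34535648) encodes the beta chain of the I-E dimer. KO libraries 1 to 4 had 3736, 4227, 2327 and 5796, against 1289, 1347, 1198 and 841 in WT libraries 1 to 4. Every KO value exceeded every WT value, and the WT values lay close together, with averages of 4022 ± 1431 in KO, against 1169 ± 227 in WT (SD, n = 4 each). The log2 difference was 1.73 (SE 0.28; 1.53 to 1.97 with any 1 library left out). H2-Ea, the alpha chain gene for this dimer, was looked for by symbol and not found among the listed genes.

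Cd74 (ENSMUSG00000024610, chromosome 18, 60936920 to 60945724) encodes the invariant chain and lies on another chromosome than the class II chains. Its values were 9739.9, 9683, 7491 and 14585 in KO libraries 1 to 4, against 3271, 3872, 4298 and 2637 in WT libraries 1 to 4. The groups were apart by a wide margin, with KO library 4 the highest of all. Cd74 averaged 10375 ± 2995 in KO, against 3519 ± 724 in WT (SD, n = 4 each), with a log2 difference of 1.54 (SE 0.23; 1.36 to 1.68 with any 1 library left out).

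The 3 calls among these genes were sensitive to single libraries: only Cd74 was called when KO library 4 was left out, and only H2-Eb1 and Cd74 when WT library 1 was. With KO library 3 or WT library 2 left out, H2-Ab1 was called as well. The number of all genes called higher changed too: it was 7 when KO library 4 was left out, 19 for KO library 1, 11 for WT library 1, 20 for WT library 3 and 61 for WT library 4.

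Ciita (ENSMUSG00000022504, chromosome 16, 10297923 to 10346282) encodes the transactivator that class II transcription needs. It had 572, 643, 454.6 and 808 in KO libraries 1 to 4, against 409, 455.1, 347 and 129 in WT libraries 1 to 4. KO library 3 lay just under WT library 2, and the other 3 KO libraries stood above all WT libraries. Ciita averaged 619 ± 148 in KO, against 335 ± 145 in WT (SD, n = 4 each), a log2 difference of 1.002 (SE 0.47), which was 0.59 without WT library 4. An estimated 43.6 fragments in KO and 32.3 in WT lay behind these values in total.

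H2-DMa (ENSMUSG00000037649, chromosome 17, 34338515 to 34358075), the alpha chain of the peptide exchanger H2-DM, differed less than the chains it serves. It had 8747, 8783, 3542 and 7396 in KO libraries 1 to 4, against 6829, 7057, 4381 and 3129 in WT libraries 1 to 4. KO library 3 was below 3 of the 4 WT libraries. The log2 difference was 0.40 (SE 0.29), or 0.71 without KO library 3 and 0.17 with WT library 4 omitted.

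H2-DMb1 and H2-DMb2 encode alternative beta chains of H2-DM and lie next to each other on chromosome 17 (ENSMUSG00000079547, 34372046 to 34379204, and ENSMUSG00000037548, 34362281 to 34370529). Their longest transcripts share 361 stretches of 50 bases, which is 26.6% of those in H2-DMb1 and 25.2% of those in H2-DMb2, so reads can be hard to part between them. H2-DMb1 had 1039, 178, 795 and 850.1 in KO libraries 1 to 4, against 265, 293, 459 and 151 in WT libraries 1 to 4. Of the KO libraries, 3 stood above all WT libraries and KO library 2 lay below 3 of the 4 WT libraries. The H2-DMb1 log2 difference was 1.13 (SE 0.56), or 1.71 without KO library 2. H2-DMb2 had 355, 0, 160.1 and 109 in KO libraries 1 to 4, against 398, 140.0, 129 and 62.7 in WT libraries 1 to 4. Apart from KO library 2, where H2-DMb2 is listed at 0, the groups covered much the same range. Its log2 difference of -1.55 (SE 1.53) turned to 0.33 without KO library 2.

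The chains of H2-O, the inhibitor of H2-DM known best from B cells, were at low values. H2-Oa (ENSMUSG00000024334, chromosome 17, 34311314 to 34314208) had 0.904, 0, 96.1 and 108 in KO libraries 1 to 4, against 0.930, 16.1, 53.8 and 68.6 in WT libraries 1 to 4. Both groups ran from about 0 to their highest library, and an estimated 5.15 fragments in KO and 4.62 in WT lay behind all of these values. Its log2 difference of -0.66 (SE 2.22) turned to 0.53 without KO library 2 and to 0.22 when KO library 1 was omitted, and on the linear scale its KO mean was 1.47 times its WT mean. H2-Ob (ENSMUSG00000041538, chromosome 17, 34457877 to 34473388) had 280.1, 2.20, 255 and 343 in KO libraries 1 to 4, against 146, 139, 144 and 288 in WT libraries 1 to 4. KO library 2 stood far below the rest, and the other 3 KO libraries overlapped with WT library 4. The H2-Ob log2 difference of -0.86 (SE 1.24) turned to 0.77 without KO library 2, and on the linear scale H2-Ob averaged 220.1 ± 150.0 in KO, against 179 ± 72.4 in WT (SD, n = 4 each). KO library 2 is the library with the fewest estimated fragments, and 45.0% of moderately expressed genes were undetected in it, against 9.10% to 28.8% in the other 7 libraries.

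**Figure D2:**
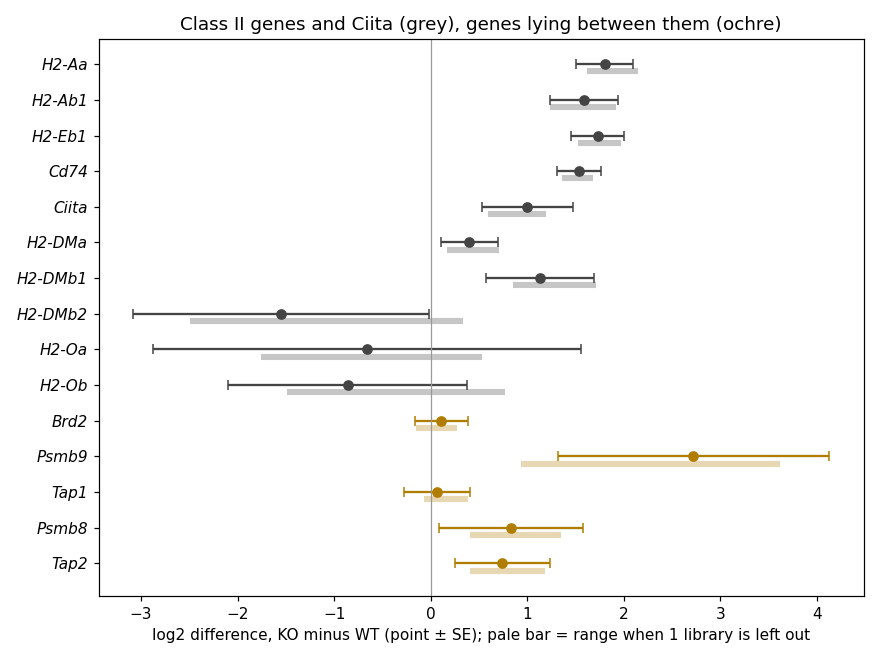
Log2 difference, KO minus WT (x axis), of the 10 class II genes and Ciita (grey) and of the 5 protein-coding genes between them on chromosome 17 (ochre), with points ± SE from limma (n = 4 each) and pale bars for the range when 1 library is left out. The bars of H2-DMb2, H2-Oa and H2-Ob cross 0, and those of the other 7 class II genes and Ciita do not.

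Levels between genes were compared per kilobase of the longest coding transcript. H2-Aa had 56326 ± 21022 per kilobase in KO, against 15525 ± 4698 in WT (SD, n = 4 each), the highest level in both groups. H2-Ab1 followed with 36452 ± 14029 in KO and 12828 ± 7287 in WT, which overlaps with H2-Aa. In KO the next levels per kilobase were those of Cd74 (7358 ± 2124), H2-DMa (3549.6 ± 1232) and H2-Eb1 (2409.6 ± 857). In WT the same places were taken by H2-DMa (2668 ± 954), Cd74 (2496 ± 513) and H2-Eb1 (700.3 ± 136), so Cd74 stood above H2-DMa in KO, and in WT their levels differed by less than their spread. The levels of H2-DMb1 were 509.6 ± 266 per kilobase in KO and 208 ± 90.6 in WT. H2-DMb2, Ciita, H2-Ob and H2-Oa had means per kilobase of 47.1 to 105 in KO and 32.0 to 123 in WT and were not ordered beyond their spread. All 4 means were below that of H2-DMb1, but in WT H2-DMb1 and H2-DMb2 (123 ± 99.7) differed by less than their spread. For Ciita the mean per kilobase was 103 in KO and 55.8 in WT, below H2-Aa, H2-Ab1, H2-Eb1, Cd74, H2-DMa and H2-DMb1 in both groups and among the levels of H2-DMb2, H2-Ob and H2-Oa.

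Ratios within a library, taken from log2(value + 1), depend little on the library's size factor unless a value is near 0. The log2 ratio of H2-Aa to H2-Ab1 was 0.53 ± 0.14 in KO and 0.31 ± 0.43 in WT, that of H2-Eb1 to H2-Aa was -3.95 ± 0.33 in KO and -3.88 ± 0.20 in WT, and that of Cd74 to H2-Aa was -2.55 ± 0.46 in KO, against -2.29 ± 0.35 in WT (SD, n = 4 each). In these 3 ratios the groups overlapped, and the difference of their means was within the larger SD of each pair. The log2 ratio of H2-DMa to H2-Aa was -3.17, -2.94, -3.03 and -3.42 in KO libraries 1 to 4, against -1.42, -1.78, -1.85 and -1.89 in WT libraries 1 to 4. Here the groups were more than 1 log2 unit apart with narrow spread: each KO library had less H2-DMa per H2-Aa than any WT library, also KO library 3, in which both genes were low. The difference was -1.40, or -1.47 to -1.30 with any 1 library left out. It equals the log2 difference of H2-DMa less that of H2-Aa. It thus carries the contrast on which both were picked, and it was not tested. For Ciita to H2-Aa the log2 ratio was -6.60 ± 0.46 in KO, against -5.80 ± 0.47 in WT (SD, n = 4 each), and KO library 3 overlapped with WT library 4. The log2 ratio of H2-DMb1 to H2-DMb2 was 1.55 to 7.49 across the KO libraries and -0.59 to 1.83 across the WT libraries, where the highest KO value comes from the H2-DMb2 value of 0.

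**Figure D3:**
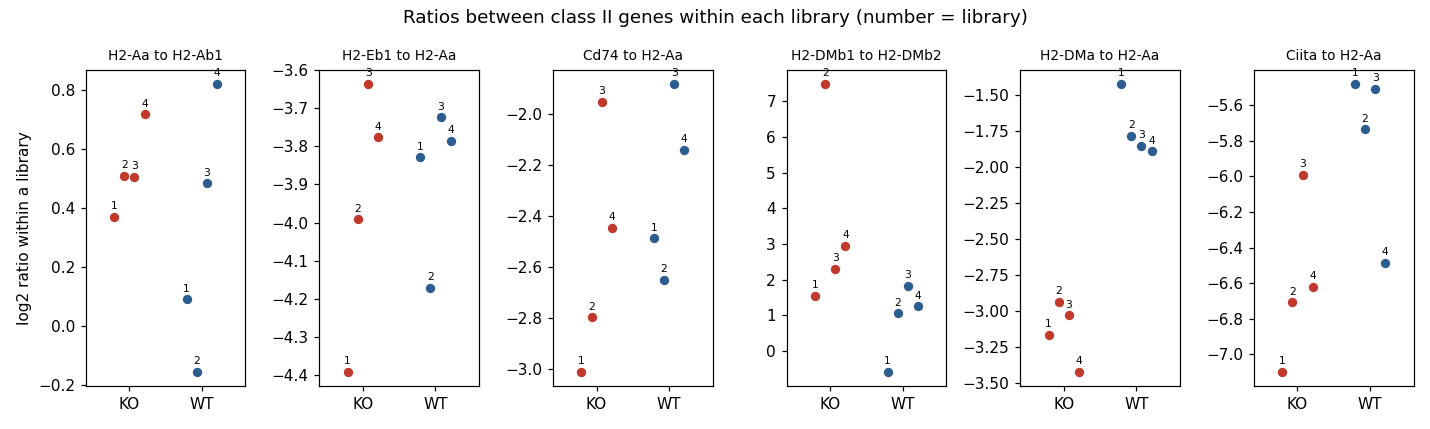
Log2 ratio between pairs of class II genes, or of Ciita and H2-Aa, within each library (y axis, a separate range per panel), for KO (red) and WT (blue) libraries numbered 1 to 4. The ratio of H2-DMa to H2-Aa spans -3.42 to -2.94 over the KO libraries and -1.89 to -1.42 over the WT libraries, without overlap, whereas the ratios of H2-Aa to H2-Ab1, H2-Eb1 to H2-Aa and Cd74 to H2-Aa overlap. The genes were picked on the contrast of KO and WT, so the ratios are a description.

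Apart from Cd74 and Ciita, the members lie within 224 kb of chromosome 17 (34311314 to 34535648, mm39). The genes that lie between them were not used to choose them and were therefore tested. Of 9 such genes 8 were tested, and limma called 0 of them, with 0 at an unadjusted p under 0.05. Their median log2 difference was 0.64, or 0.30 to 1.13 with any 1 library left out. Tap1 and Tap2, which encode the transporter that loads class I molecules, had log2 differences of 0.07 (SE 0.34) and 0.74 (SE 0.49). Psmb8 and Psmb9, which encode immunoproteasome subunits, had 0.83 (SE 0.75) and 2.72 (SE 1.40), and Psmb9 was listed at 0 in WT library 1. Brd2, a chromatin reader, had 0.11 (SE 0.28). The log2 differences of H2-Aa, H2-Ab1 and H2-Eb1, at 1.59 to 1.80, lie above those of Brd2, Tap1, Tap2 and Psmb8. Psmb9 lies above them as given and below them without WT library 1 (0.94) or at a pseudocount of 50 (1.17). With any 1 library left out, the ranges of Psmb8 (0.40 to 1.35) and H2-Ab1 (1.24 to 1.92) overlap. The members were picked on this contrast, so nothing is read from their place above these genes. H2-Eb2, a further class II beta chain gene outside this span, had 0 to 114 in the KO libraries and 0 to 45.7 in the WT libraries, a log2 difference of 0.73 (SE 2.21).

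The known route to class II transcription was examined through lists of genes, none of which overlaps with the members. These lists were chosen with earlier results of these data known, so their counts are given as a description. For comparison, of all 16120 genes tested, 6992 had positive log2 differences and 1080 had an unadjusted p under 0.05 by limma. Factors of the X and Y boxes and partners of CIITA, 11 genes, had 0 called by limma and 0 at an unadjusted p under 0.05, with 4 of 11 positive and a median log2 difference of -0.09. The coactivator Ep300 was at 0.06 (SE 0.20), the Y box subunit Nfyb at 0.37 (SE 0.32) and the X box subunit Rfxank at -1.29 (SE 0.86). Of the interferon gamma pathway that leads to Ciita, 9 of 10 genes were positive, with a median of 0.62, 0 called and 4 at an unadjusted p under 0.05. The receptor chain Ifngr1 had 0.74 (SE 0.21, adjusted p = 0.281) and the kinase Jak1 0.41 (SE 0.26). Repressors of Ciita, 8 genes, had a median of 0.16 (-0.08 with KO library 3 omitted, 0.28 with KO library 2 omitted) with 0 called and 2 at an unadjusted p under 0.05, namely Prdm1, which silences Ciita in plasma cells, at 0.67 (SE 0.31) and the cytokine Il10 at 3.12 (SE 1.44; 1.49 with WT library 3 omitted).

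Among 18 genes that interferon gamma induces outside class II, limma called 3 higher, where 0.211% of all genes were called higher. The 3 were the chemokine Cxcl9 by 3.07 (SE 0.40), and the GTPases Iigp1 by 2.86 (SE 0.39) and Gbp2 by 2.24 (SE 0.30), each with a limma adjusted p of 0.00139. Since this list was chosen with earlier results of these data known, nothing is read from that count. It also holds Tap1, Tap2, Psmb8 and Psmb9, which were counted above among the genes between the members. In this list 17 of 18 log2 differences were positive, with a median of 0.79, and B2m, the class I light chain, was at 0.49 (SE 0.23). The genes that work on class II proteins did not share this direction. Endosomal proteases and their partners had a median of -0.08 with 4 of 9 positive, which became 0.07 when KO library 2 was omitted. Trafficking and turnover genes had a median of -0.32 with 1 of 9 positive, or -0.15 when KO library 3 or WT library 1 was omitted. There were 0 called and 1 at an unadjusted p under 0.05 in each list. The lysosomal proteases Ctsb, Ctsd and Lgmn had log2 differences of -0.46 (SE 0.21), -0.41 (SE 0.20) and -0.48 (SE 0.25). Among the trafficking genes, the lysosomal membrane proteins Lamp1 and Lamp2 had -0.55 (SE 0.25; -0.27 with KO library 3 omitted) and -0.21 (SE 0.25), and Marchf8, a ligase that marks class II for removal, had -0.42 (SE 0.27).

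Signals that accompany class II on antigen-presenting cells had 1 of 11 genes called higher, Cd274 (the checkpoint ligand PD-L1), at 1.32 (SE 0.24, limma adjusted p = 0.0179). This call was lost in 5 of the 8 omissions of a library (KO libraries 1, 2 and 4 and WT libraries 1 and 3), with adjusted p of up to 0.151. The list's median was 1.28, or 0.71 without WT library 2, and the costimulator Cd80 was at 2.08 (SE 0.49, adjusted p = 0.106). Of the receptors that bind class II, Lag3, an inhibitory receptor of T cells, had a log2 difference of 2.93 (SE 0.76, adjusted p = 0.175), with 349 to 583 across KO libraries and 36.0 to 99.3 across WT libraries. Cd4, the coreceptor of helper T cells, was low in both groups, with 11.0 to 122 across KO libraries and 0 to 169 across WT libraries (log2 difference 1.30, SE 1.87).

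Markers of the cells best known for class II were read beside these values. Of 20 macrophage and monocyte markers, 4 were positive, the median log2 difference was -0.36, 0 were called and 4 had an unadjusted p under 0.05. Their summed values were 129920 to 282127 in KO and 209346 to 326639 in WT, which overlap. Lyz2 alone gave most of each sum, with 75242 in KO library 3 (sum 129920) and 186897 in KO library 1 (sum 282127). The named genes of this list were Mrc1, a mannose receptor, at -0.73 (SE 0.21), the surface marker Adgre1 at -0.54 (SE 0.24) and Lyz2 at -0.49 (SE 0.30). Of 16 dendritic cell markers tested, 13 were positive, with a median of 0.51, 0 called and 3 at an unadjusted p under 0.05. The dendritic sums were 10319.5 to 17205 in KO and 7519.8 to 11298 in WT, and the median was 0.14 with KO library 1 omitted and 1.02 with KO library 2 omitted. Irf4, a factor that T cells also express, was at 1.83 (SE 0.48), the hydrolase Naaa at 1.01 (SE 0.32) and the adhesion molecule Cadm1 at 0.11 (SE 0.31), whereas the list's defining markers were partly detected. Flt3, Batf3, Cd209a and Ccl17 were under 1 in at least 4 libraries, but Xcr1 was at 77.4 to 753 across KO libraries and 167 to 316 across WT libraries, and Zbtb46 at 1.10 to 474 across KO libraries and 115 to 253 across WT libraries. Of 10 B and plasma cell markers 5 were positive, with a median of -0.11, 0 called and 2 at an unadjusted p under 0.05, and sums of 1594 to 3403 in KO and 1488 to 2332 in WT. That median was -0.32 with WT library 2 omitted and 0.80 with KO library 2 omitted. Igkc, an antibody light chain, was at 2.55 (SE 0.69), Ighm, the mu heavy chain, at 0.15 (SE 0.44) and the B cell factor Ebf1 at -2.56 (SE 1.10), and Fcmr and Fcer2a were under 1 in at least 4 libraries.

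CD8 T cell markers had 13 of 14 positive and a median of 0.74, with 0 called and 4 at an unadjusted p under 0.05. Their sums were 24869 to 52656 in KO and 8921 to 32524 in WT, and the median was 1.28 with KO library 1 omitted and 0.25 with WT library 2 omitted. Cd3e had a log2 difference of 1.31 (SE 0.31), Cd8a 1.15 (SE 0.34; 0.66 with WT library 2 omitted) and the kinase Lck 0.74 (SE 0.27). The other marker lists had 0 genes called. Fibroblast markers had a median of -0.64 (2 of 10 positive; -1.14 with KO library 1 omitted, -0.42 with KO library 2 omitted), with Postn at -1.33 (SE 0.35), Pdgfrb at -1.18 (SE 0.40) and Thy1, which T cells share, at 0.89 (SE 0.36). Tumour epithelial markers had a median of 0.35 (5 of 7 positive; -0.12 to 0.86 over the omissions), with Krt8 at -1.04 (SE 0.77), Cldn4 at 2.62 (SE 2.22) and Cdh1 at 0.30 (SE 0.37). Endothelial markers had a median of -1.78 (0 of 5 positive; -2.70 to -0.59 over the omissions), with Cdh5 at -2.19 (SE 1.45; -0.21 with KO library 2 omitted), Tie1 at -2.72 (SE 2.16) and Pecam1 at -0.25 (SE 0.52), and NK cell markers had a median of 0.57 (3 of 5 positive; 0.12 to 1.93 over the omissions), with Klrb1c at 2.14 (SE 1.20; 0.42 with WT library 1 omitted) and Klre1 at 3.37 (SE 2.23). The helper T cell marker Zbtb7b was at -0.0034 (SE 0.34). The part of any of these cell types in the class II difference was not tested.

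**Figure D4:**
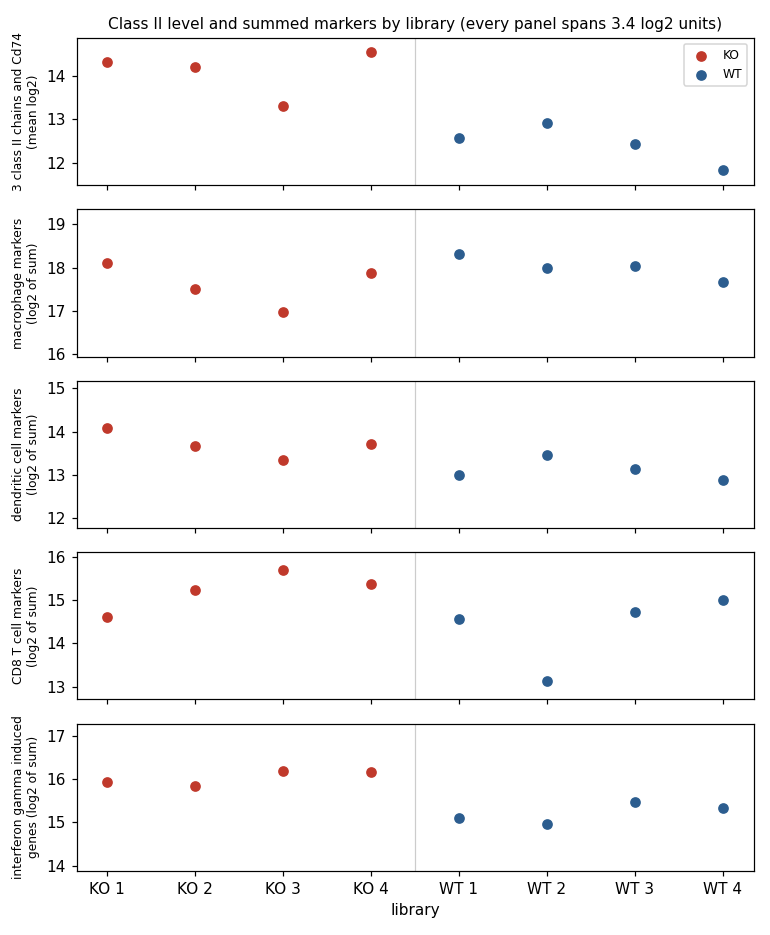
Mean log2 of H2-Aa, H2-Ab1, H2-Eb1 and Cd74 (top panel) and log2 of the summed values of 4 lists (macrophage, dendritic cell, CD8 T cell, interferon gamma induced genes) in KO (red, left) and WT (blue, right) libraries 1 to 4; every panel spans the same number of log2 units. The class II mean is 13.30 to 14.54 in KO and 11.82 to 12.90 in WT, and the macrophage sum is lowest in KO library 3, which is also the lowest KO library for class II. Lyz2 makes up most of the macrophage sum in every library.

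Within a group, the members also varied between libraries, and this variation was not used to choose them. After each group's mean was subtracted, the mean log2 of H2-Aa, H2-Ab1, H2-Eb1 and Cd74 deviated by 0.22, 0.12, -0.79 and 0.45 in KO libraries 1 to 4, and by 0.13, 0.48, 0.0016 and -0.61 in WT libraries 1 to 4. KO library 3 and WT library 4 were thus the low libraries. Over the 8 libraries, which share their depth and makeup among all genes, Pearson's r of these deviations with the mean of the other 3 genes was 0.96 for H2-Aa, 0.90 for H2-Eb1, 0.84 for H2-Ab1 and 0.73 for Cd74. With the mean of all 4, r was 0.92 for H2-DMa and 0.83 for Ciita, but 0.15 for H2-DMb1, 0.0033 for H2-DMb2, -0.17 for H2-Ob and -0.40 for H2-Oa. Without KO library 3 and WT library 4, the libraries farthest from the median, r was 0.87 for H2-Aa, 0.83 for Ciita, 0.43 for H2-Eb1, 0.40 for H2-DMa, 0.27 for H2-Ab1 and 0.09 for Cd74. It was 0.43 for H2-Ob, 0.42 for H2-Oa, 0.31 for H2-DMb2 and 0.22 for H2-DMb1. H2-Aa and Ciita thus kept r above 0.8, whereas the other 8 lay between 0.09 and 0.43, and the order of H2-Eb1, H2-Ab1, Cd74 and H2-DMa over the H2-O and H2-DM beta chains rests on those 2 libraries.

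Of 9280 other genes with a mean of at least 100, leaving out predicted genes and pseudogenes, 36 had r above 0.9. The 10 closest were Pon2 (0.997), Lamp1 (0.96), Paox, Tmcc3, Ccna2, Zfp697, C1qtnf6, Cd81, Esr1 and Rpap2 (0.94). Their own log2 differences between KO and WT ran from -1.23 (Paox) to 0.59 (C1qtnf6), and limma called none of the 10, so none had both the within-group pattern and a called difference. Without KO library 3 and WT library 4, r with the class II mean ran from 0.62 (Tmcc3) to 0.99 (Pon2) over these 10, with Lamp1 at 0.92. The libraries left were among those used to pick the 10 genes, so this is no separate check. By list, the median r was 0.75 for trafficking and turnover genes (8 of 9 positive), 0.70 for endosomal processing (9 of 9 positive) and 0.48 for macrophage markers (15 of 19 positive), beside -0.04 over all 10242 genes with a mean of at least 100, predicted genes and pseudogenes included. It was 0.02 for dendritic cell markers, -0.13 for the interferon gamma pathway, -0.29 for interferon gamma induced genes (5 of 18 positive) and -0.62 for CD8 T cell markers (0 of 14 positive). Within groups, class II levels thus ran with endosomal and macrophage genes and against CD8 T cell genes, while between groups the CD8 T cell markers had mostly positive differences, as had class II, with 0 of them called. Without KO library 3 and WT library 4 the medians were 0.34 for trafficking, 0.23 for endosomal processing, -0.21 for macrophage markers and -0.54 for CD8 T cell markers, still with 0 of 14 positive, so the macrophage relation changed sign and the CD8 relation did not. They were then 0.02 for interferon gamma induced genes (10 of 18 positive), 0.28 for dendritic cell markers (7 of 11 positive) and -0.35 for the interferon gamma pathway. The negative median of the interferon gamma induced genes thus rests on KO library 3 and WT library 4.

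**Figure D5:**
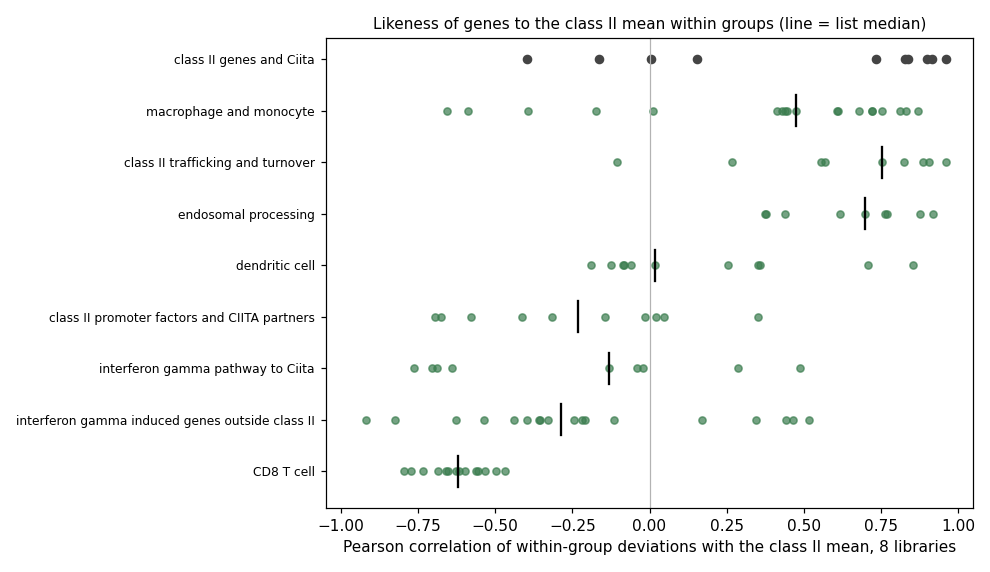
Pearson's r over 8 libraries between each gene's deviation from its group mean and that of the class II mean (x axis), for the 10 members (dark points) and the genes with a mean of at least 100 in 8 lists (green points), with a line at each list's median. CD8 T cell markers lie at -0.80 to -0.47, whereas endosomal processing genes lie at 0.37 to 0.92.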

How the data were processed

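RNA-seq of 8 libraries was used, 4 KO and 4 WT. The deposited table holds a signal per gene: the authors estimated gene counts and normalized them with DESeq2, per the labels and the name of the table. STAR 2.7.8a, DESeq2, Partek and the build mm39 stand in the submitters' processing notes, without roles. Of values up to 500 reads, 81.7% to 88.1% were whole within 0.02 reads, so reads could not be recovered and a count test was not used. Small RNAs (280 genes) held 27.6% to 35.2% of each library.

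For this work, log2(value + 1) was fitted by limma 3.58.1 (R 4.3.3, lmFit and eBayes with trend) over all genes whose mean reached 10, two-sided, with Benjamini-Hochberg adjustment. On this scale the pseudocount shrinks fold changes of low genes, whereas a value near 0 in 1 library enlarges them beyond the ratio of means. The labels call the libraries biological replicates. The steps were tested on simulated data.

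The members and lists were chosen with earlier results of these data known. Named genes were the members, Mtdh, the 2 genes of lowest p in each list, its most abundant gene and any called, the protein-coding genes between the members, and the 10 genes most like them. Pairing, pseudocounts, minimum means, scalings, robust fits and leaving out libraries were tried as alternatives, with values below. Some genes that this rule names are not reported here.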

Additional observations from a re-analysis of the deposited data

Results flagged for a closer look

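Among 32 groups of 4 values (10 genes and 6 ratios, KO and WT each), 4 held a library far from the other 3 by the gap between them; chance alone gives about 1 in 20. H2-Aa in KO library 3 had a log2 value of 14.82, against 16.04 to 16.28 in the other KO libraries, and it still lay above every WT library. H2-DMb1 in KO library 2 was at 7.49, against 9.64 to 10.02 in the other KO libraries. H2-Ob in KO library 2 was at 1.68, against 7.998 to 8.43. H2-Ob in WT library 4 was at 8.17, where the remaining WT libraries had 7.13 to 7.20. In KO library 2, 1 fragment was estimated to be worth a value of 153, the most of any library, and its part in the low H2-DMb1 and H2-Ob values was not tested.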

How the results depend on the processing

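H2-Aa, H2-Ab1, H2-Eb1, Cd74, Ciita, H2-DMa and H2-DMb1 kept positive differences under every alternative run; the lowest values came from leaving out a library, with 0.17 for H2-DMa, 0.59 for Ciita and 0.85 for H2-DMb1. Across other settings H2-DMb2 stayed negative (-1.58 to -0.34), whereas H2-Oa (-0.68 to 0.13) changed sign at a pseudocount of 50 and H2-Ob (-0.90 to 0.10) under quantile scaling. H2-Oa has no value at a minimum mean of 50. Same-numbered KO and WT libraries were treated as unpaired in the main fit. The correlation of their deviations was 0.02 to 0.08, which does not settle whether they were paired. With the replicate number as a block, 0 genes were called higher and 0 lower, 0 members and 0 pathway list genes. Members called numbered 3, or 2 to 4 in the other settings apart from the block and 1 to 4 with a library left out.

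Genes called higher, 34 in all, numbered 59 at a pseudocount of 10, 75 at 50, 15 at a minimum mean of 50, and 7 to 61 with a library left out. Genes called lower, 4 in all, numbered 10 at a pseudocount of 50, 0 at a minimum mean of 50, 7 under quantile scaling, and 0 to 9 with a library left out. Pathway list genes called higher, 4 in all, numbered 8 at a pseudocount of 50. Marker list genes called higher, 0 in all, numbered 1 at a pseudocount of 10, 2 at 50, and 0 to 1 with a library left out, and those called lower, 0 in all, numbered 1 at a pseudocount of 50 and 1 under quantile scaling. The costimulation median was 0.71 to 1.41 with a library left out. Ep300 was at -0.0070 under quantile scaling. With a library left out, 10 small or uncertain differences changed sign, with ranges of -0.40 to 1.89 for H2-Eb2, -0.0175 to 0.13 for Ep300, -0.44 to 0.0376 for Lamp2, -0.20 to 2.27 for Cd4, -0.17 to 0.34 for Cadm1, -0.31 to 0.38 for Ighm, -0.20 to 0.14 for Zbtb7b, -0.59 to 0.26 for Pecam1, -0.16 to 0.27 for Brd2 and -0.0738 to 0.38 for Tap1. The causes were not tested. Few fragments behind H2-Oa, H2-DMb2, H2-Ob, Ciita and H2-DMb1 limit what can be seen of them.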
